A study of Mus musculus with 6 samples.

Results

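The genes described here encode 10 plasma membrane carriers that bring sugars, short-chain acids, lactate, peptides and water-soluble vitamins across the cells of the gut: Slc5a1, Slc5a9, Slc2a2, Slc2a3 and Slc2a5 for sugars, Slc5a8, Slc16a1 and Slc16a3 for monocarboxylates, Slc5a6 for vitamins and Slc15a1 for peptides. They were 10 of the 23462 genes that could be named on the arrays, and were reached by 12 of 56605 probes. They were chosen by the measured difference between knockout and control, because Slc5a9 was among the largest rises, so every difference between genotypes given for these 10 genes is a description and none is offered as a test.

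The samples were colon of 6 male mice, 3 with the genotype Control and 3 with Islr knockout, each hybridised to 1 single-colour array. The product of Islr is a leucine-rich repeat protein of stromal cells. According to the sample source all 6 animals, controls included, had drunk 3.5% dextran sulfate sodium (DSS), which injures the colonic epithelium, for 5 days and had then recovered for 1 day; the treatment field of the same labels gives none. Strain, age and whether Islr was lost in every cell are not stated in the labels, and the single question of the design is how its loss altered colonic expression.

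Colonocytes take most of their energy from butyrate, a short-chain acid released by bacteria, which enters across the luminal membrane through the sodium-coupled carrier Slc5a8 and the proton-coupled carrier Slc16a1. Sodium-coupled sugar carriers of the Slc5 family (SGLT) drive uptake against a gradient, whereas facilitative carriers of the Slc2 family (GLUT) let sugars run down it. Sugar and peptide carriers are best known from the small intestine and are sparser in colon. Slc16a3 exports lactate from glycolytic cells, and Slc2a3 is a high-affinity glucose carrier of neurons and leukocytes.

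The start regions of 4 of these genes are shown because they set 3 luminal carriers whose signals were higher in every knockout array (Slc5a1, Slc5a8 and Slc15a1) beside Slc16a1, whose groups overlapped. Each is the 250 bases before the annotated start, 5′ to 3′ on the gene's strand, from RefSeq on GRCm38.p6, where 8 of the 10 genes were found. Slc5a9 and Slc2a3 were not among them, so no motif was sought in those genes. Capitals mark matches, on either strand, to the CDX core TTTATG, the HNF1 half-site GTTAAT, the HNF4 core CAAAGT, the GATA site AGATAA, the GC box GGGCGG, the E-box CACGTG, the hypoxia element core NACGTG or the TATA box TATAAA. An E-box match is always a match to the hypoxia element core as well.
Slc5a1, chr5:33103969-33104218, plus strand: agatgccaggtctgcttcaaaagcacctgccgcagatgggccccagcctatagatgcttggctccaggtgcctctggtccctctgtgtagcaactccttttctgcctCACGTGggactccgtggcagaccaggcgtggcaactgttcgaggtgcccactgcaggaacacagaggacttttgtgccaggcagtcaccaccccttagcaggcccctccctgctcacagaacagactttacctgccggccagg
Slc5a8, chr10:88885742-88885991, plus strand: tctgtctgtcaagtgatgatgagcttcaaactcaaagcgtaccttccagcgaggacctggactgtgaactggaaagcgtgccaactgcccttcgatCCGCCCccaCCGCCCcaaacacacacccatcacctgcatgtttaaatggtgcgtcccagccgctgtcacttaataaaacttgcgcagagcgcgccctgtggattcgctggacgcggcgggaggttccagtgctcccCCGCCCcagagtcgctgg
Slc15a1, chr14:121505255-121505504, minus strand: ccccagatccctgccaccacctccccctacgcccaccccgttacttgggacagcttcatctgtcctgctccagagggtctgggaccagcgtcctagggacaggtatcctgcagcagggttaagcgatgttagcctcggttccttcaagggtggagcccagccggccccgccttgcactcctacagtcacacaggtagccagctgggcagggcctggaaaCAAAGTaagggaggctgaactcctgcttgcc
Slc16a1, chr3:104638414-104638663, plus strand: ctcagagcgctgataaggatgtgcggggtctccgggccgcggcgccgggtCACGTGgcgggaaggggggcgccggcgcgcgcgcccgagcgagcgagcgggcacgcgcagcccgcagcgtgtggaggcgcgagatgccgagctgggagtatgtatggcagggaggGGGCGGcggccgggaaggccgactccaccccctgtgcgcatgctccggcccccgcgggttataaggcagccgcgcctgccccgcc

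No motif stood in all 3 luminal carriers shown. The E-box letters stood in Slc5a1 and Slc16a1 and in 6.02% of the 32851 start regions of the table. The HNF4 core stood in Slc15a1, and also in Slc2a2, against 12.6% of all regions. GC boxes stood in 5 of the 8 members found (Slc16a1, Slc16a3, Slc2a5, Slc5a6 and Slc5a8) and in 32.7% of all regions. The hypoxia element core stood in Slc16a1, Slc16a3 and Slc5a1, against 16.5%. No CDX core, HNF1 half-site, GATA site or TATA box letters stood in these windows of the 8 members; such letters were in 10.8%, 6.43%, 9.99% and 12.4% of all regions, and their absence says nothing of the factors. The Slc16a1 region was 76.4% G or C with 37 CpG pairs, the Slc5a1 region 60.0% with 6, the Slc15a1 region 62.0% with 7 and the Slc5a8 region 58.8% with 17, against medians of 52.4% and 6 over the table.

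Signals are given as log2 of the background-subtracted spot signal minus the array's 75th percentile, so that 0 is that percentile. A value can be compared between arrays for 1 probe, not between probes. Islr itself, the check of the labels, was lower by -2.44 in the knockout (SE 0.21, adjusted p 0.0171 in limma). Between 69.4% and 75.4% of the spots of an array were well above background. Over all 35351 tested probes 1403 passed a 5% false discovery rate in limma (39.1% of them higher; 51.1% of 2558 with normexp background correction and the 75th percentile, and 49.4% of 9292 with array weights). Fibroblast, smooth muscle, endothelial, macrophage and epithelial markers were all well above background, as in whole colon wall, although the design text speaks of flow separation. In such tissue, fewer cells of a type and less RNA per cell cannot be told apart. Nothing in the labels says more about how the animals were kept apart, so p-values measure only the spread between these samples, and precision is limited by having 3 arrays in each group.

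Of the 10 carriers 7 could be tested; for Slc5a8, Slc16a1 and Slc15a1 the scanner software marked 3, 3 and 5 of the 6 spots as outliers (uneven pixels or a population outlier), which left too few values. Of the 7 tested, 1 passed the threshold over all probes, Slc5a9, where 3.97% of all tested probes passed (1.55% higher and 2.42% lower). Of the 6 tested carriers usable on every array, 3 had groups without overlap (Slc5a9 higher, Slc2a3 and Slc16a3 lower), against 34.5% of such probes (16.5% higher). With outlier spots kept, 3 of 10 passed (Slc5a8, Slc5a9 and Slc16a3), against 4.85% of all probes (1.96% higher). On that footing 8 of the 10 were higher in the knockout and 2, Slc2a3 and Slc16a3, were lower. The groups did not overlap for 6 of the 10, 4 higher and 2 lower, while 34.9% of all probes had groups without overlap (17.3% higher).

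**Figure D1:**
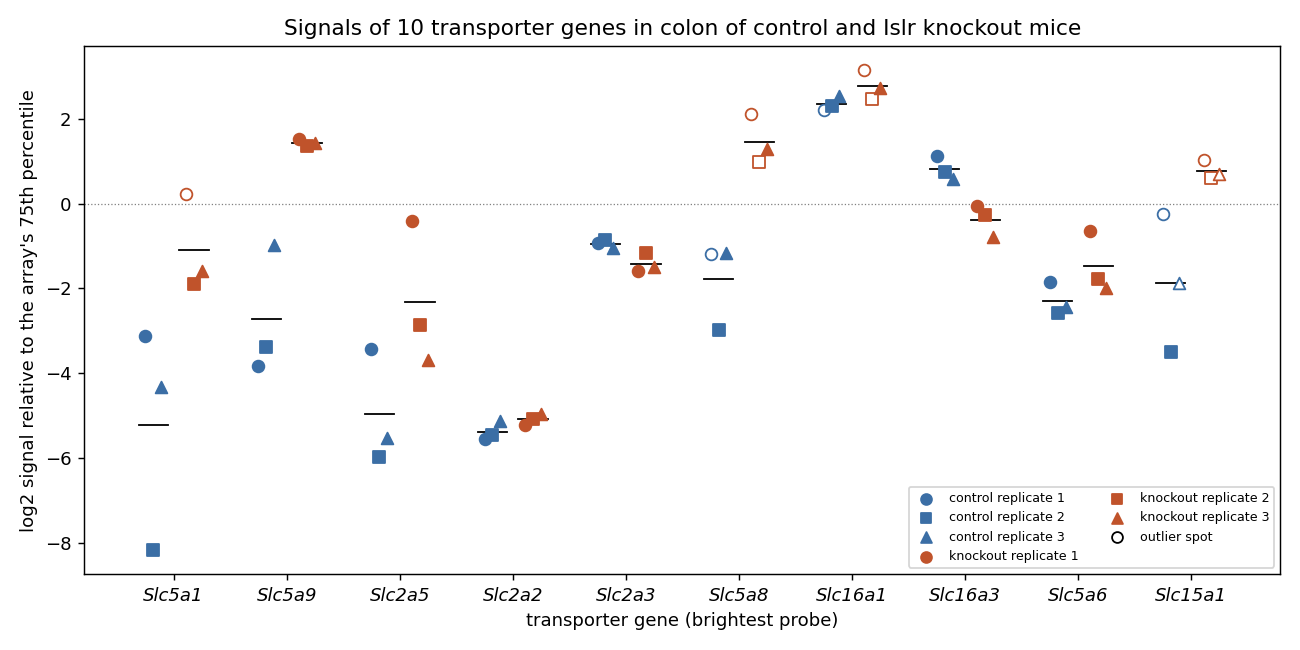
Log2 signal of the brightest probe of each of the 10 carriers (vertical axis, relative to the array's 75th percentile) on the 3 control and 3 knockout arrays; bars are group means over 3 arrays, and open symbols are outlier spots. The 3 knockout points of Slc5a9 lie within 1.36 to 1.51, above all controls, whereas those of Slc16a3 lie below all controls; heights are comparable within a gene only.

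Slc5a9 (SGLT4), a sodium-coupled carrier of mannose, fructose and glucose, had the largest difference of the 7 tested carriers in the main setting; Slc5a1 exceeded it with array weights (5.29 against 4.30) and without control replicate 1 (4.52 against 3.62), and was close to it with outlier spots kept (4.13 against 4.17). Control replicates 1, 2 and 3 read -3.83, -3.39 and -0.97 on the log2 scale, and the knockouts, in the same order, 1.51, 1.36 and 1.44. The knockout arrays thus lay close together (1.44 ± 0.075, SD, n = 3) and the controls far apart (-2.73 ± 1.54, SD, n = 3), with control replicate 3 nearest to the knockouts. This difference of 4.17 (SE 0.70) is an 18.0-fold higher mean signal. Its probe had rank 13 by difference among all 35351 tested probes. The ranking by which it counted among the largest rises took, for each gene, the probe with the largest difference among those that passed higher, were well above background on all arrays and did not overlap. Of the 240 genes with such a probe it had rank 3, below Tgm3 (4.41) and 2310079G19Rik (4.25). Next came Tnni1 (4.10), Gsdmcl-ps (3.75) and Ltf (3.66). Control replicate 3 set much of the size: without it the difference was 5.05, and without control replicate 1 it was 3.62, both past the threshold. Without control replicate 2 (3.84) or knockout replicate 1 (4.13), 2 (4.21) or 3 (4.17) the threshold was missed.

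The second probe of Slc5a9 was well above background on none of the 6 arrays and gives no fold. Its signals were 24.5, 24.5 and 29.9 intensity units in controls and 75.3, 93.1 and 53.4 in the 3 knockouts. For comparison, the brighter probe read 447.2, 680.4 and 3330 units in controls and 14019, 14982 and 15657 in knockouts. Both probes were therefore brighter on every knockout array, the dim one at a level the scanner software did not separate from background.

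Slc5a1 (SGLT1), the sodium-coupled carrier of glucose and galactose, was also brighter on every knockout array. Its log2 signal was -3.13, -8.18 and -4.34 in control replicates 1, 2 and 3, -1.89 and -1.58 in knockout replicates 2 and 3, and 0.22 in knockout replicate 1, an outlier spot left out of the fit. The spot of control replicate 2, at 24.5 intensity units, was not well above background. The difference was 3.48 (SE 1.44, 3 controls against 2 knockouts) and did not pass the threshold; without control replicate 2 it was 1.999, with array weights 5.29 and with normexp and quantile normalization 2.18. The size of the Slc5a1 difference therefore rests on a dim control spot, while its direction was the same in those 3 settings.

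Slc2a5 (GLUT5), the facilitative fructose carrier, showed overlapping groups. Control replicates 1, 2 and 3 read -3.42, -5.98 and -5.53 (log2), and the knockouts, in the same order, -0.41, -2.86 and -3.70. Control replicate 1 lay above knockout replicate 3, and control replicate 2 was not well above background. The difference was 2.66 (SE 0.99) and did not pass; without knockout replicate 1 it was 1.70.

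The other sugar carriers differed less. Slc2a2 (GLUT2), the facilitative carrier of the basolateral membrane, was dim, at -5.55, -5.45 and -5.14 in controls and -5.23, -5.09 and -4.96 in the 3 knockout arrays. Its groups overlapped and the difference was 0.29 (SE 0.17), not past the threshold. Slc2a3 (GLUT3) was lower on every knockout array, at -0.94, -0.85 and -1.06 in controls against -1.60, -1.16 and -1.50. That difference of -0.47 (SE 0.17) did not pass; its second probe was well above background on no array and read 55.8 to 62.6 units in controls and 24.6 to 30.8 in knockouts.

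Slc5a8 (SMCT), the sodium-coupled carrier of butyrate, lactate and other monocarboxylates, was brighter in the knockout by a margin wider than the spread of either group, but 3 of its 6 spots were outliers. With these kept, control replicates 1, 2 and 3 read -1.20, -2.99 and -1.16 (log2), and the knockouts, in the same order, 2.11, 0.98 and 1.29. The means were -1.78 ± 1.05 and 1.46 ± 0.58 (SD, n = 3 each), a difference of 3.24 (SE 0.55) or 9.47-fold. The usable spots alone, control replicates 2 and 3 and knockout replicate 3, read -2.99, -1.16 and 1.29. With outlier spots kept and 1 array left out in turn, the difference ran from 2.64 to 3.55, and it passed without control replicate 1 or knockout replicate 2 and missed the threshold in the other 4 fits.

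Slc16a1 (MCT1), the proton-coupled carrier that shares butyrate and lactate with Slc5a8, showed no such gap. With outlier spots kept it read 2.21, 2.31 and 2.54 in controls and 3.15, 2.46 and 2.74 in knockouts. Knockout replicate 2 lay below control replicate 3, so the groups overlapped, and the difference of 0.43 (SE 0.22) did not pass.

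Slc16a3 (MCT4), the lactate exporter, ran the other way. Control replicates 1, 2 and 3 read 1.11, 0.76 and 0.58 on the log2 scale, and the knockouts, in the same order, -0.06, -0.28 and -0.79. Every knockout lay below every control. The difference was -1.19 (SE 0.24), a 2.29-fold lower mean signal. It stood just outside the threshold over all probes and inside it in 6 of 9 alternatives on the 6 arrays; it passed in 0 of the 6 fits with an array left out, with differences from -1.35 to -0.99.

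Slc5a6, the sodium-dependent carrier of biotin and pantothenate, had overlapping groups, with -1.84, -2.59 and -2.45 in controls and -0.66, -1.78 and -1.99 in the 3 knockouts. Their difference of 0.82 (SE 0.39) did not pass and was 0.41 without knockout replicate 1.

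Slc15a1 (PEPT1), the proton-coupled carrier of di- and tripeptides, had 5 outlier spots, and control replicate 2 was its single usable value. With all spots kept, the log2 values of control replicates 1, 2 and 3 were -0.24, -3.51 and -1.89, and those of the knockouts, in the same order, 1.02, 0.61 and 0.69. The knockouts agreed closely (0.77 ± 0.21) and the controls did not (-1.88 ± 1.64, SD, n = 3 each). The difference was 2.65 (SE 0.75) and did not pass; it was 1.84 without control replicate 2 and 3.47, past the threshold, without control replicate 1.

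**Figure D2:**
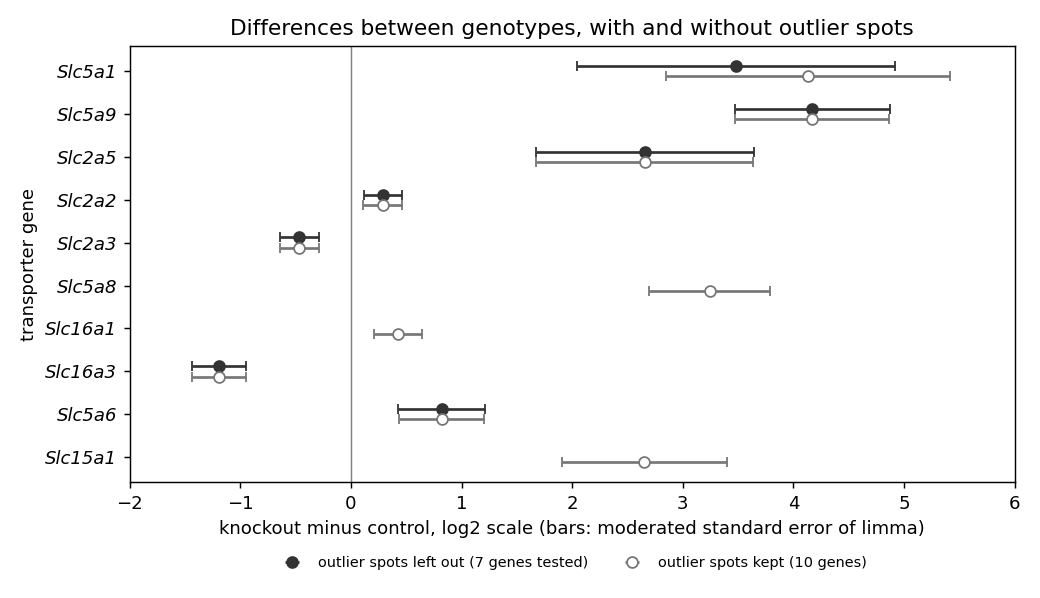
Knockout minus control difference of each carrier on the log2 scale, with its limma standard error, with outlier spots left out (filled, 7 genes) and kept (open, 10 genes). Slc5a9, at 4.17 in both, is the farthest right of the filled points and Slc16a3, at -1.19, the farthest left.

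Single arrays ranked partly alike across the carriers. With outlier spots kept, knockout replicate 1 was the brightest array for 7 of the 10, and control replicate 2 the dimmest for 5 of the 10. These counts have no share of all probes beside them. Knockout replicate 1 also had the largest share of outlier spots, ahead of control replicate 1 and knockout replicate 2, and the lowest 75th percentile. Its values for Slc5a1, Slc5a8, Slc16a1 and Slc15a1 were outlier spots. Its Slc5a9 signal before scaling was the lowest of the knockouts. Epithelial marker genes showed the same 2 extremes, knockout replicate 1 and control replicate 2. The summed signal of 10 epithelium markers (Epcam, Cdh1, Krt8, Krt18, Krt19, Vil1, Cdh17, Cldn7, Elf3 and Lgals4), in units of each array's 75th percentile, came to 62.0, 21.2 and 49.8 for control replicates 1, 2 and 3, and for the knockouts, in the same order, to 98.9, 74.8 and 77.3. Of these markers 8 of 8 tested were higher in the knockout with a median of 1.24; 0 passed in limma and 3 had an unadjusted p under 0.05. Of 13 differentiated colonocyte markers tested all were higher, with a median of 1.58, 0 past the threshold and 5 at an unadjusted p under 0.05; their summed signal was 24.4 to 74.6 in controls and 85.7 to 115.8 in knockouts. How far more epithelium accounts for the carriers was not tested.

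Set against the mean log2 signal of the 10 epithelium markers on the same array, which was higher in the knockout by 1.20 (1.78 ± 0.94 against 2.98 ± 0.21, SD, n = 3 each), the carriers formed 3 sets. The share of all probes without overlap was not computed on this scale, so the counts here have no background beside them. The mean of the markers itself had groups without overlap. The ratio stayed higher on every knockout array for 4 of the carriers. The difference in log2 ratio was 2.97 for Slc5a9, 2.93 for Slc5a1, 2.04 for Slc5a8 and 1.45 for Slc15a1. The Slc5a8 ratios were -3.68, -3.70 and -3.31 in controls against -1.12, -1.84 and -1.61 in knockouts. Their spread between controls (SD 0.22) was less than in the unadjusted signal (SD 1.05), as it was for Slc5a1, Slc2a5 and Slc15a1. For the remaining carriers the controls spread more after division. Their SD was 1.63 against 1.54 for Slc5a9, 1.02 against 0.10 for Slc2a3 and 0.88 against 0.27 for Slc16a3. The ratio was lower on every knockout array for 2, Slc16a3 (-2.39) and Slc2a3 (-1.67). The groups overlapped for the other 4. Their differences were 1.46 for Slc2a5, -0.38 for Slc5a6, -0.77 for Slc16a1 and -0.91 for Slc2a2, and the last 3 were above 0 in the unadjusted signal. Each ratio difference is the unadjusted one, outlier spots kept, less the same 1.20. An unchanged gene would therefore fall below 0 by 1.20. The changes of sign and the larger falls of Slc2a3 and Slc16a3 follow from the division alone.

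**Figure D3:**
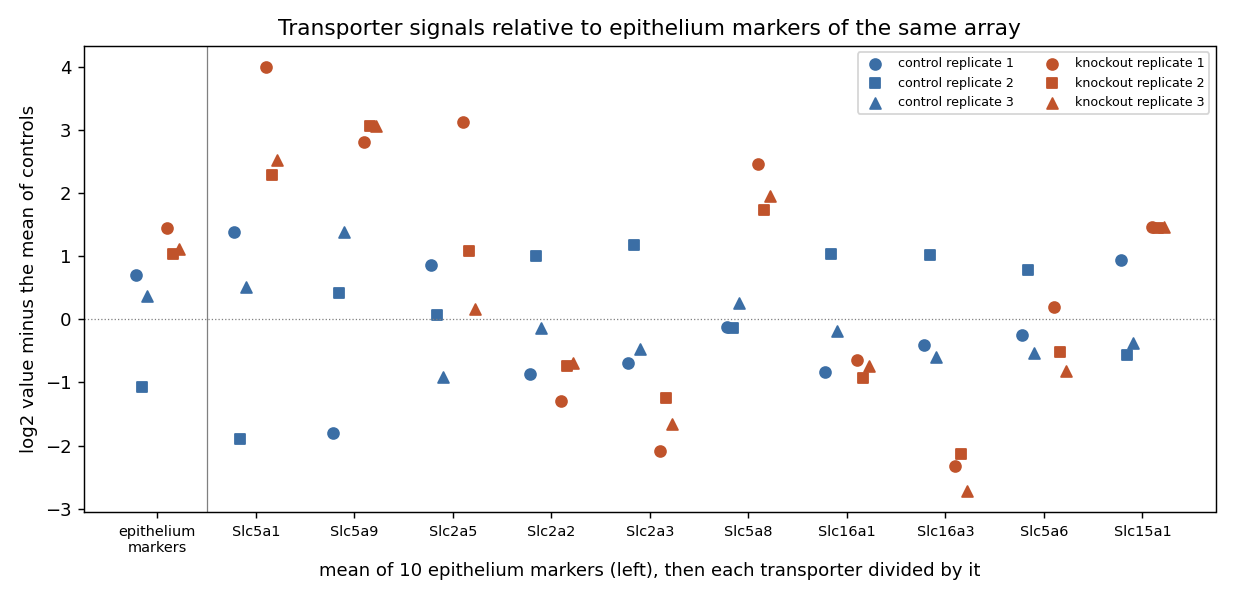
Log2 value on each array minus the mean of controls, for the mean of 10 epithelium markers (left) and for each carrier divided by it, with outlier spots kept. Knockout points of Slc5a1, Slc5a9, Slc5a8 and Slc15a1 lie above all their control points; those of Slc2a3 and Slc16a3 lie below.

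Markers of other cells moved as well. Over all 16451 tested named genes 51.2% were higher and 3.82% passed in either direction. These are the shares to set beside the counts of each list here and below. Of 8 neutrophil markers tested 6 were lower past the threshold (S100a8, S100a9, Retnlg, Cxcr2, Mmp8 and Camp) and 2 were slightly above 0 without passing (Csf3r 0.17 and Trem1 0.18). Leaving out control replicate 2 left 0 calls among 6 tested, and leaving out control replicate 3 left 1 of 6. When knockout replicate 3 was dropped 1 of 8 passed, and when knockout replicate 1 was dropped 4 of 8. The median of -2.83 was -1.51 and -1.59 without control replicates 2 and 3. The summed signal of that list was 31.7 to 35.2 in controls and 26.7 to 28.9 in knockouts; Ngp was well above background on no array. Of 7 macrophage markers 6 were lower, with a median of -0.75, 0 past the threshold in limma and 4 at an unadjusted p under 0.05; their summed signal was 23.8 to 32.1 in controls and 16.2 to 21.8 in knockouts. Endothelial markers were lower in 7 of 7 tested (6 of 7 with array weights), with a median of -1.17, 0 past the threshold and 6 at an unadjusted p under 0.05 in limma, and their summed signal was 8.60 to 10.4 in controls against 2.79 to 6.10. Fibroblast markers were lower in 8 of 8 tested (7 of 8 with array weights), with a median of -0.52 and 1 past the threshold (0 with any array left out), and their summed signal was 40.5 to 47.0 against 26.2 to 35.0. These 4 lists had medians on the same side of 0 as Slc2a3 and Slc16a3, and their part in those differences was not tested. Smooth muscle markers were higher in 7 of 7 tested, with a median of 0.36, 0 past the threshold and 2 at an unadjusted p under 0.05 in limma. Small intestine markers (6 of 8 higher, median 1.21) summed to 6.54 to 12.6 in controls and 10.1 to 13.1 in knockouts. Of them 0 passed the threshold and 3 had an unadjusted p under 0.05 in limma. Markers of distal position (Hox genes) were higher in 7 of 8 tested (5 of 8 with array weights), with a median of 0.52. The count was also 5 of 8 without control replicate 1 (median 0.32) and without knockout replicate 1 (median 0.36). The summed signal of these Hox genes was 5.60 to 6.57 in controls and 7.98 to 17.1 in knockouts. Of these, 0 passed and 2 had an unadjusted p under 0.05 in limma. The part of either list in the sugar and peptide carriers was not tested. Skeletal muscle markers summed to 5.10 to 6.48 in controls and 10.9 to 15.7 in knockouts, with 3 of 13 tested higher past the threshold (Myh1, Myh2 and Tnni1). Of those 13 markers 9 were higher and 4 lower, with a median of 0.13; without knockout replicate 3 it was 6 higher and 7 lower, with a median of -0.01 and 1 past the threshold.

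The remaining genes of the same 4 families were split between both directions. Of 34 relatives in the Slc2a, Slc5a, Slc15a and Slc16a families 25 were tested, 11 higher and 14 lower, with a median of -0.12 against 0.01 for all 16451 tested named genes. Past the threshold were 0 higher and 2 lower, against 3.82% of all tested named genes. With outlier spots kept it was 1 higher and 2 lower, and with array weights 4 higher and 6 lower. The 1 higher with outlier spots kept was Slc5a3, taken by the brightest probe of each setting. It differed by 2.09 in the main setting (SE 0.51, adjusted p 0.0670 in limma) and by 1.40 with outlier spots kept (adjusted p 0.0436 in limma). Slc5a3 has 2 probes and the brightest can differ between settings, so these values are not to be compared. Slc15a3, a peptide and histidine carrier of leukocyte lysosomes, fell from -0.03, 0.13 and -0.06 in controls to -3.18, -1.70 and -2.10 in knockouts, by -2.34 (SE 0.37, adjusted p 0.0340 in limma). With an array left out Slc15a3 passed in 3 of 6 fits. The widespread glucose carrier Slc2a1 (GLUT1) differed by 0.29 (SE 0.23, adjusted p 0.469 in limma), and Slc2a4 (GLUT4), the insulin-responsive carrier of muscle and fat, by 0.30 (SE 0.20, adjusted p 0.365 in limma).

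Genes that place, drive or transcribe such carriers were mostly higher, as were the epithelium markers (median 1.24). Whether they rose apart from these markers was not tested. Of 18 partners and regulators 15 were tested, 14 higher and 1 lower, with a median of 1.05, where 51.2% of all tested named genes were higher. The single one past the threshold was Atp1b1, the beta subunit of the sodium pump that maintains the gradient for the Slc5 carriers, which rose by 1.61 (SE 0.29, adjusted p 0.0468 in limma) over 2 controls and 3 knockouts. Txnip, an arrestin-like protein that withdraws glucose carriers from the membrane, differed by 0.35 (SE 0.20, adjusted p 0.336 in limma). The chaperones of the proton-coupled monocarboxylate carriers, looked up after the values were seen, parted: Bsg (basigin) was at 1.72 ± 0.38 in controls and 2.17 ± 0.16 in knockouts, and Emb (embigin) at 0.18 ± 0.14 and -0.74 ± 0.31 (SD, n = 3 each). Neither passed (adjusted p 0.256 and 0.0554 in limma). With an array left out the Atp1b1 difference ran from 1.45 to 1.71 and passed in 1 of the 4 fits possible; with outlier spots kept it was 1.22 and did not pass.

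Among receptors and enzymes for short-chain acids, a receptor fell and an enzyme rose. Of 15 such genes 13 were tested, 11 higher and 2 lower, with a median of 0.43. Hcar2, the receptor GPR109A for butyrate and niacin that leukocytes and colonocytes carry, fell by -2.62 (SE 0.28, adjusted p 0.0250 in limma), from 0.08 and 0.01 in control replicates 2 and 3 to -3.02, -2.48 and -2.21 in knockout replicates 1, 2 and 3. Bdh1, a mitochondrial enzyme of ketone body formation, rose by 0.81 (SE 0.16, adjusted p 0.0468 in limma), from 0.97 ± 0.13 to 1.78 ± 0.16 (SD, n = 3 each). The fatty acid oxidation enzymes Hadhb (0.26, SE 0.20, adjusted p 0.446 in limma) and Acaa2 (0.36, SE 0.28, adjusted p 0.445 in limma) did not pass. Hcar2 passed in 3 of the 4 fits possible with an array left out, and Bdh1 in 0 of 6.

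Brush-border genes of digestion were mostly higher, with few past the threshold. Of 9 saccharidase and fructose genes 6 were tested, and the brightest probes of Sis and Treh were well above background on no array. All 6 tested were higher, with a median of 0.64, 0 past the threshold and 2 at an unadjusted p under 0.05 in limma. Without control replicate 1 it was 5 of 6, and without the filter on dim probes 6 of 9. Khk, which phosphorylates fructose, differed by 0.63 (SE 0.25, adjusted p 0.165 in limma). Of 12 peptidase and amino acid carrier genes 8 were tested, and the brightest probe of Slc6a19 was well above background on no array. Among those tested 7 of 8 were higher, with a median of 1.88. It was 8 of 8 with normexp (medians 1.75 and 1.76), 6 of 8 without control replicate 1, 9 of 11 with outlier spots kept (median 0.95) and 8 of 11 without the filter on dim probes (median 0.79). The median was 0.88 over 6 genes without knockout replicate 3 and 0.999 over 6 without knockout replicate 2. Slc1a1, a carrier of glutamate and aspartate, rose from -3.18, -3.10 and -1.73 in controls to 0.75, -0.28 and -0.06 in knockouts, by 2.81 (SE 0.46, adjusted p 0.0357 in limma), and passed in 3 of 6 fits with an array left out. The peptidase subunit Mep1b differed by 2.83 (SE 0.79, adjusted p 0.109 in limma) and the proton-coupled amino acid carrier Slc36a1 by 0.79 (SE 0.34, adjusted p 0.205 in limma).

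Vitamin carriers and glycolytic enzymes, the settings of Slc5a6 and Slc16a3, were mixed. Of 10 vitamin genes tested 5 were higher and 5 lower. Slc23a2, a sodium-coupled vitamin C carrier, fell by -0.71 (SE 0.14, adjusted p 0.0495 in limma), from -1.27 ± 0.051 to -1.99 ± 0.12 (SD, n = 3 each), and passed in 0 of the 6 fits with an array left out. The riboflavin carrier Slc52a2 differed by 0.37 (SE 0.17) and Slc44a4, a carrier of choline and thiamine derivatives, by 3.21 (SE 0.75), with adjusted p of 0.223 and 0.0838 in limma. Of 10 enzymes around hexose phosphorylation and lactate 7 were higher and 3 lower, with a median of 0.19, 0 past the threshold and 1 at an unadjusted p under 0.05 in limma. Ldha, which makes the lactate that Slc16a3 exports, differed by 0.21 (SE 0.20, adjusted p 0.555 in limma), and Pkm by 0.16 (SE 0.17, adjusted p 0.569 in limma).

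**Figure D4:**
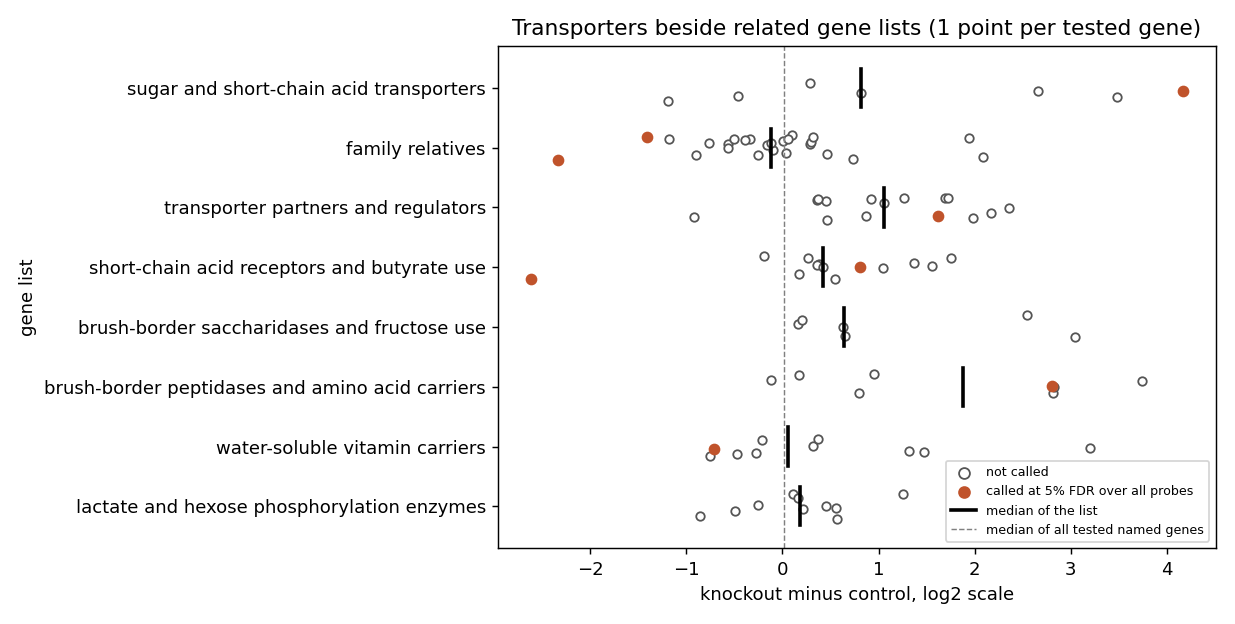
Knockout minus control difference on the log2 scale for each tested gene of the carriers and of 7 related lists; filled points passed the 5% false discovery rate over all probes and bars are list medians. The carriers spread from -1.19 to 4.17, and the family relatives centre on -0.12.

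Genes were also ranked by the likeness of their profile to that of Slc5a9 over the 6 arrays, among 13674 named genes usable on all of them. The highest Pearson correlations, 0.995 to 0.999, belonged to Acss2os, Ccdc17, Nhlh1, DXBay18 and Crhr1, whose own differences were 0.56 to 1.14. After the group means were subtracted they belonged to Olfr46, Scgb2b20, Acss2os, Abca17 and Pick1 (0.991 to 0.998). Acss2os stood in both groups of 5, at -6.16, -6.04 and -5.47 in controls and -4.90, -4.98 and -4.98 in knockouts. Among the carriers usable on all arrays the correlation with Slc5a9 was 0.88 for Slc2a2, 0.59 for Slc2a5, 0.54 for Slc5a6, -0.86 for Slc2a3 and -0.92 for Slc16a3. These describe 6 arrays that fall into 2 groups and that share the same scaling.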

How the data were processed

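Total RNA of each colon was extracted with TRIzol, amplified and labelled, per the labels' protocols. Only red-channel columns were in the files and these were used, although a green signal is named in the labels. The deposited processed signal is a linear intensity after spatial detrending and background subtraction in Agilent Feature Extraction 11.5.1.1, per the file headers (10.7 per the submitters' processing notes), without scaling between arrays. The control arrays shared the first slide row and the knockout arrays the second, so row and genotype cannot be told apart. Replicate numbers follow accession order.

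Signals were converted to log2 and the 75th percentile of the array over 59305 non-control spots was subtracted. Outlier spots (3.26% to 16.0% of an array) were treated as missing. A probe was tested if well above background on all 3 arrays of a group and usable on at least 2 arrays of each. The test was limma's (3.58.1, R 4.3.3), two-sided and with Benjamini-Hochberg adjustment over 35351 probes. The procedure was tested on simulated data with independent noise on every array. These data held no effect shared across an array, so they do not bear on how calls move between settings. Probes were named through RefSeq accessions (33767 of 56605); the brightest tested probe stood for a gene. The members, lists and rules were chosen with earlier results of these data known. From each list the genes past the threshold (the 4 with the largest difference where there were more) and up to 2 others with the brightest probes were named; marker lists are summarised, and some genes that this rule names are not reported here. Slc5a3 was named in addition because it passed with outlier spots kept, and Bsg and Emb were added after the values were seen. Adjusted p-values are limma's. A summed marker signal is the sum over the brightest probe of each gene, outlier spots kept.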

Additional observations from a re-analysis of the deposited data

How the results depend on the processing

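The number of probes called was 1403 and that of carriers called 1 of 7. With array weights they were 9292 and 4, with normexp and quantile normalization 2773 and 2, with normexp and the 75th percentile 2558 and 2, with quantile normalization of the processed signal 2185 and 2, and with the submitters' processed values 3 carriers and 2274 probes. Without a filter on dim probes they were 484 and 0, where 4 carriers had an unadjusted p under 0.05 in limma. Centring on the median gave 2249 probes and the same carrier, Slc5a9. With outlier spots kept 3 carriers were called, and with all tested probes of a gene averaged 0, with 4 at an unadjusted p under 0.05. Leaving out 1 array gave 40 to 2114 probes and 0 to 1 carriers. The cause of these moves was not tested, beyond the fewer arrays or other probes that a setting itself brings. No carrier tested in the main setting changed direction in any alternative run. Leaving out arrays with outlier spots kept was added after seeing the data. No paired analysis was possible because the labels give no replicate numbers. Dim spots limit Slc5a1 and Slc2a5, each not well above background on control replicate 2.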
